A study of Mus musculus with 24 samples.

Results

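Pi15, Spon1, Wfdc2, Ngfr, Kirrel3, Igdcc3, Xkr4, Cacnb2 and 4932415M13Rik are 9 of the 55401 genes in a read count table of the mouse maternal-fetal interface (MFI). They were named because their levels at gd16.5 (gd, gestation day) were low in C1qtnf6 knockout (KO) mice and because none of them is a natural killer (NK) cell gene. The 6 libraries of gd16.5 therefore chose them, with no numerical limit given, and their gd16.5 difference is described here without a test. The other 18 libraries, from gd10.5, gd14.5 and gd19.5, were not used in that choice and carry every test of these 9 genes.

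Polyadenylated RNA was sequenced from the MFI of C57BL/6 wild-type (WT) mice and of C1qtnf6-KO mice on the C57BL/6JCya strain, homozygous for a CRISPR deletion of exons of C1qtnf6. Both genotypes were sampled at gd10.5 and gd14.5, in mid-gestation, and at gd16.5 and gd19.5, toward term. Each of the 8 groups held 3 libraries. The labels name the tissue as maternal-fetal interface and the methods speak of placentae. Neither names dams or litters, so the p-values measure the spread between these libraries, which may be technical in part. Whether the libraries of a group come from separate dams is not known.

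Library totals lay between 20975717 and 37383108 counts. C1qtnf6, which encodes the secreted hormone CTRP6, gave 64.7 to 168 CPM (read counts scaled to library size) in the 12 WT libraries and 0.0341 to 2.05 CPM in the 12 KO libraries. KO gd10.5 replicate 2 stood apart from its stage, with a first principal component of -36.8 against -73.4 to -63.8 for the other 5 libraries, and its spongiotrophoblast markers summed to 10533 CPM against 745 to 1938 CPM. At gd16.5, WT replicate 1 and KO replicates 1 and 2 held 7019 to 19662 CPM of yolk sac endoderm markers and 89.2 to 194 CPM of Y-linked transcripts, which come from male fetal cells. The other 3 gd16.5 libraries held 67.9 to 171 CPM and 0.487 to 1.14 CPM. The results that these libraries moved most are also given without them or split by Y-linked reads.

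The 9 genes belong to different families. Pi15, Spon1 and Wfdc2 encode secreted proteins, which act outside the cell as an antiprotease-like CAP protein, a matrix adhesion protein and a small WAP-domain protein. Ngfr, Kirrel3 and Igdcc3 encode cell surface proteins that receive or hold contact with other cells, and are known mainly from nerve and developing tissue. Xkr4 and Cacnb2 encode a lipid scramblase and a calcium channel subunit, and 4932415M13Rik is a transcript without a known protein. The MFI is a mixture of maternal decidua, uterine muscle and vessels with fetal trophoblast, so that in bulk RNA fewer cells of a type and less RNA per cell cannot be told apart.

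RefSeq promoter sequences (GRCm38.p6, 250 bases before and 50 after the start) were held for 5 of the 9 genes, and 1 window for each is shown to set side by side the starts of genes whose levels were all lower at gd19.5 than at gd14.5. They are written 5′ to 3′ on the gene's own strand. Capitals mark GGGCGG, the core of the GC box, or CCAAT, read on both strands (CCGCCC and ATTGG on the other strand). The first 4 windows are marked for GGGCGG and the last for CCAAT.
Ngfr (chr11:95587649-95587948, - strand): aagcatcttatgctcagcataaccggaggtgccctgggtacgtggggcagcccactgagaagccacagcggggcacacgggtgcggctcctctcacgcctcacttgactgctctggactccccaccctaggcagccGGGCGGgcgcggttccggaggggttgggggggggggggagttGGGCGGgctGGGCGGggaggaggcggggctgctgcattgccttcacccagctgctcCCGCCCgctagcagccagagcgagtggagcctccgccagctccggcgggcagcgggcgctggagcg
Igdcc3 (chr9:65140904-65141203, + strand): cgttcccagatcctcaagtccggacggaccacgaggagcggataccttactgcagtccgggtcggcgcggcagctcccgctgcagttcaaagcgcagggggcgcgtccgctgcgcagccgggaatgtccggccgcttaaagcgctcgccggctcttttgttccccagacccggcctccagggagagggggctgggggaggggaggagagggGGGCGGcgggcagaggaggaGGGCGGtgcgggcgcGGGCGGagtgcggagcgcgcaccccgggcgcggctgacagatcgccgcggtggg
Wfdc2 (chr2:164562465-164562764, + strand): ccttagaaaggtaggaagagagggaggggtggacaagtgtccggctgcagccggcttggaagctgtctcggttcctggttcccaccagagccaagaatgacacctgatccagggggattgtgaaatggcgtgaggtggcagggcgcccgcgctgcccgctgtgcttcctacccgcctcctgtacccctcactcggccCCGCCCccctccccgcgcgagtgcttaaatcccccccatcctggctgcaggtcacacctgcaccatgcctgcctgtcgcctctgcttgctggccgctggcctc
Cacnb2 (chr2:14604056-14604355, + strand): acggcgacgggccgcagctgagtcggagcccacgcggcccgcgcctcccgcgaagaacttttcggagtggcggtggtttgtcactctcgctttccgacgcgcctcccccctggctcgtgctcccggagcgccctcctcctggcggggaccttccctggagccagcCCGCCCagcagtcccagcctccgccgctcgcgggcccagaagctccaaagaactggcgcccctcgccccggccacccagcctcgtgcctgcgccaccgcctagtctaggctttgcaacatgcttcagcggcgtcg
4932415M13Rik (chr17:53716259-53716558, + strand): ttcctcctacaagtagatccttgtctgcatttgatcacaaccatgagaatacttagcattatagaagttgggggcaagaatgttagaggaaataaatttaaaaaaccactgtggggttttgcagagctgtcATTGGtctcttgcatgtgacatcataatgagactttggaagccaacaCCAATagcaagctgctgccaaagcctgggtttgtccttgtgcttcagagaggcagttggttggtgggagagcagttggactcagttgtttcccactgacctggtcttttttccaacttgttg
GGGCGG was found 4 times in the Ngfr window, 3 times in that of Igdcc3 and once each in those of Wfdc2 and Cacnb2. So 4 of the 5 windows printed here, 1 for each gene, held it, against 35.7% of 32851 RefSeq promoters. The window of 4932415M13Rik held none, and held CCAAT 2 times, once on each strand, a motif found in 37.4% of promoters and in no other window printed here. TATAAA, present in 13.6% of promoters, was not found in any of the windows. Another RefSeq start of Cacnb2 (chr2:14823842-14824141) lacked GGGCGG and held AGAACA, a hexamer of the steroid receptor element found in 19.0% of promoters. Pi15, Spon1, Kirrel3 and Xkr4 had no entry.

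At gd16.5, the stage that chose the genes, the log2 fold change of KO against WT was below -1 for all 9 genes, against 0.545% of the 17071 genes tested, and its median over the 9 was -1.32. The KO and WT libraries were fully separated, KO lower, for 8 of them, against 9.62% of genes. Nothing is read from either count, because these values chose the genes. The KO libraries of Cacnb2 alone overlapped the WT libraries.

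Among the secreted proteins, Pi15 measured 10.8, 12.8 and 41.7 CPM in WT replicates 1, 2 and 3 and 4.68, 6.44 and 3.56 CPM in KO (log2 fold change -2.12 ± 0.53, SE). WT replicate 3 held far more Pi15 than the other WT libraries, and without it the difference was -1.25. Spon1, or F-spondin, measured 45.5, 32.9 and 88.6 CPM in WT and 19.47, 25.9 and 26.5 CPM in KO (-1.20 ± 0.34, and -0.70 without WT replicate 3). Wfdc2 measured 12.5, 17.4 and 20.05 CPM in WT and 5.23, 2.19 and 9.49 CPM in KO (-1.57 ± 0.46). For each of these genes the lowest WT library stayed above the highest KO library, and WT replicate 3 was the highest.

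Ngfr, the p75 receptor of neurotrophins, measured 1.65, 3.23 and 5.99 CPM in WT and 0.349, 0.277 and 1.596 CPM in KO, the latter from 7, 9 and 35 reads. Its log2 fold change was -2.30 ± 0.71, and -3.52 without KO replicate 3, which at 1.596 CPM nearly met the lowest WT library. Kirrel3, an immunoglobulin-domain adhesion protein related to nephrin, measured 5.83, 8.27 and 8.86 CPM in WT and 2.79, 2.10 and 5.06 CPM in KO (-1.20 ± 0.33). Igdcc3, of the DCC family of receptors, measured 5.58, 6.32 and 7.30 CPM in WT and 2.34, 1.54 and 4.20 CPM in KO (-1.25 ± 0.34). In all 3 surface protein genes KO replicate 3 was the highest KO library and WT replicate 1 the lowest WT library.

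Xkr4, a scramblase that exposes phosphatidylserine at the cell surface, measured 1.28, 1.41 and 2.14 CPM in WT and 0.548, 0.586 and 0.775 CPM in KO (-1.32 ± 0.28). Cacnb2, an accessory subunit of voltage-gated calcium channels, measured 2.07, 3.58 and 4.77 CPM in WT and 0.946, 1.48 and 2.46 CPM in KO (-1.07 ± 0.40). The Cacnb2 overlap came from WT replicate 1 falling below KO replicate 3. 4932415M13Rik measured 1.12, 1.02 and 2.53 CPM in WT and 0.149, 0.370 and 0.274 CPM in KO (-2.45 ± 0.48). These KO values rest on 3, 12 and 6 reads, and 3 reads is the detection limit used here.

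**Figure D1:**
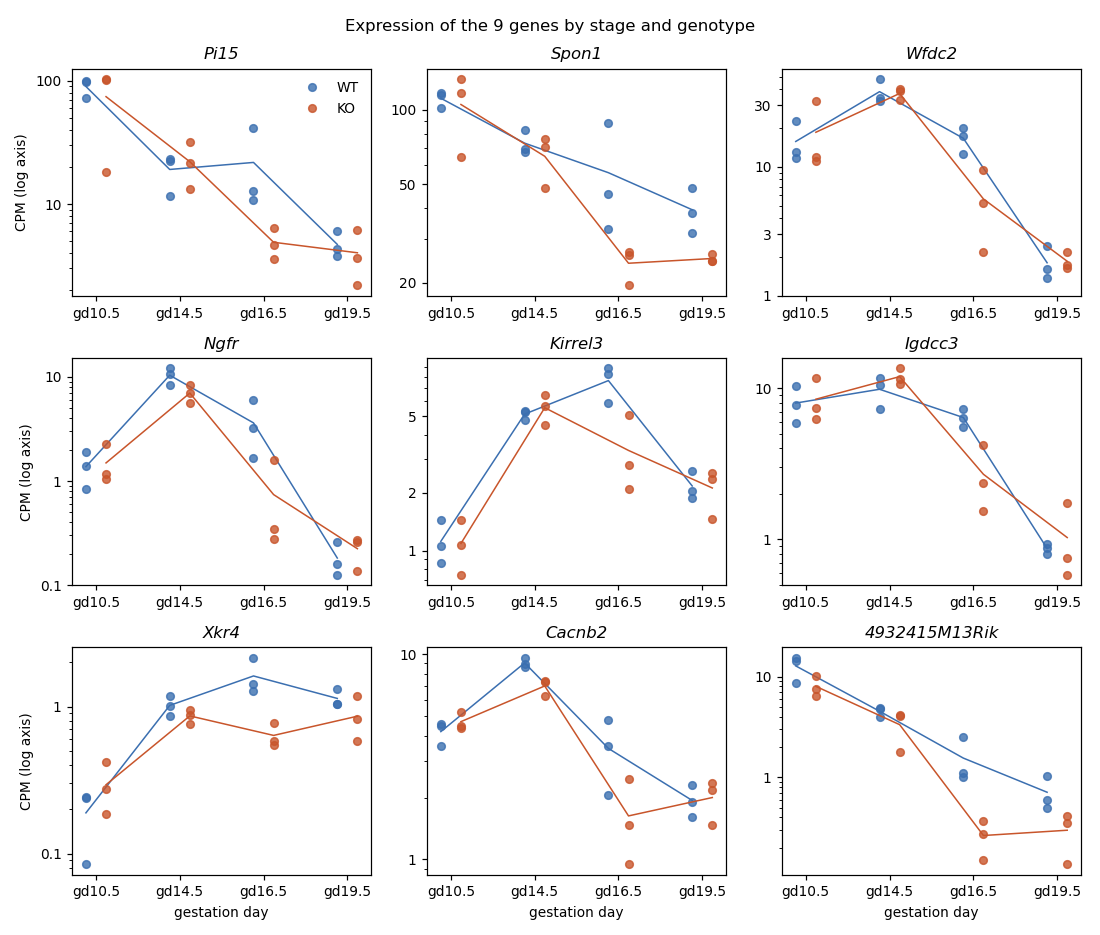
CPM of each gene (log axis) in every library against gestation day, WT in blue and KO in orange, with lines joining the means of 3 libraries. At gd16.5 the KO points lie below the WT points except for 1 overlap in Cacnb2, and 7 of the 9 WT means are lowest at gd19.5 (all but Kirrel3 and Xkr4).

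WT gd16.5 replicate 3 was the highest WT library for all 9 genes, and WT replicate 1 the lowest for 7. Without WT replicate 3 the median difference of the genes was -1.15, and without KO replicate 3, the highest KO library for 7 genes, it was -1.73. Set apart by Y-linked reads, the 2 KO libraries with them lay below the 1 WT library with them for 9 of 9 genes. The 1 KO library without them also lay below both WT libraries without them for 9 of 9. That split was made after seeing the data and carries no test. Its values are those that chose the genes, and the share over all genes was not computed. Nothing is read from these counts.

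Marker lists of other cells also differed at gd16.5, in both directions. The 6 uterine stroma markers (Hoxa10, Hoxa11, Hoxd10, Pgr, Esr1 and Hand2) summed to 140 to 250 CPM in WT, highest in WT replicate 3, and to 108 to 121 CPM in KO, and for 5 of the 6 the KO libraries were separated from and below the WT libraries, against 9.62% of genes. The 3 labyrinth trophoblast markers that could be tested all had negative fold changes (median -0.93), and the list summed to 206 to 276 CPM in WT and 93.5 to 194 CPM in KO. The 5 endothelial markers all had negative fold changes, with sums of 982 to 1373 CPM in WT and 708 to 1055 CPM in KO. The 8 smooth muscle markers summed to 528 to 720 CPM in WT and 406 to 483 CPM in KO, and the 7 fibroblast markers to 4006 to 4153 CPM and 2830 to 3472 CPM. The summed level of the 4 spongiotrophoblast and glycogen cell markers was higher in KO, from 20738 to 28846 CPM in WT to 34505 to 37450 CPM in KO, although 2 of the 4 had negative fold changes. The 4 giant cell markers all had positive fold changes (median 0.54), with sums of 16435 to 23631 CPM in WT and 24793 to 28977 CPM in KO. The 8 NK genes named by the study (perforin, granzymes and Fcrl6) summed to 514 to 785 CPM in WT and 180 to 252 CPM in KO. The summed level of the 6 NK cell identity markers was higher in KO, with 62.1 to 73.2 CPM in WT and 76.7 to 92.3 CPM in KO. Of these markers, Ncr1 and Klrb1c stood at or under 3 counts in the gd16.5 libraries. Only 2 had reads enough for a test, and 1 of these had a negative fold change (median 0.03). The part of each of these in the 9 genes' difference was not tested.

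Markers of nerve tissue were mixed at gd16.5. Of 7 Schwann cell and glial markers, Sox10 stood at or under 3 counts in the gd16.5 libraries, and the sum was 39.0 to 45.2 CPM in WT and 48.3 to 76.4 CPM in KO, most of it Erbb3 (mean 41.0 CPM in WT). Of 5 neuronal markers, Snap25 was at or under 3 counts at every stage, and the 3 that could be tested all had negative fold changes in KO, the list summing to 106 to 118 CPM in WT and 69.8 to 103 CPM in KO. The part of nerve tissue was not tested, and Ngfr, Kirrel3, Igdcc3, Xkr4 and Cacnb2 are called by name and not by a cell type.

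The course through gestation was tested in the 18 other libraries, with edgeR's quasi-likelihood test over 19206 genes, Benjamini-Hochberg adjustment, and a call at adjusted p under 0.05 with a log2 difference over 1. From gd10.5 to gd14.5 in WT, 7 of the 9 genes were called, of which 5 rose and 2 fell, against 22.6% of genes tested. In KO, 6 were called, of which 4 rose and 2 fell, against 20.2%. From gd14.5 to gd19.5, none rose in either genotype, against 6% of genes in WT and 5.94% in KO, and 7 fell in WT and 8 in KO, against 4.3% and 4.93%. Over the whole interval from gd10.5 to gd19.5, 8 were called in each genotype, against 29.4% and 28.9%, and of these only Xkr4 was higher at gd19.5. Since the genes were chosen by a difference at gd16.5, inside this interval, these shares describe the genes and are not independent of how they were found.

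Pi15 fell at each step. In WT its mean was 90.0 ± 15.7 CPM at gd10.5 (SD, n = 3), 19.1 ± 6.4 CPM at gd14.5 and 4.70 ± 1.16 CPM at gd19.5, a log2 difference of -2.24 ± 0.50 (SE, edgeR adjusted p = 0.0016) and then of -1.996 ± 0.55 (adjusted p = 0.011). In KO the log2 differences over the same steps were -1.75 and -2.47. KO against WT at gd10.5 compared 101, 18.3 and 104 CPM with 99.8, 98.3 and 72.0 CPM. The low library was KO replicate 2, which stood apart, and the log2 fold change was -0.27 with it and 0.19 without it. The Pi15 libraries of the genotypes also overlapped at gd14.5 (0.22 ± 0.30) and at gd19.5 (-0.28 ± 0.32).

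The WT mean of Spon1 went from 111 ± 8.6 CPM at gd10.5 through 73.3 ± 8.6 CPM at gd14.5 to 39.4 ± 8.5 CPM at gd19.5, and only the whole interval passed the fold limit in WT (-1.48 ± 0.22, edgeR adjusted p = 3.2e-05). At gd19.5 the libraries read 48.5, 31.6 and 38.2 CPM in WT and 24.5, 26.2 and 24.4 CPM in KO. The genotypes did not overlap, and the log2 fold change was -0.68 ± 0.13, with an unadjusted p of 0.00052 and an adjusted p of 0.12 in edgeR. DESeq2 gave Spon1 an adjusted p of 0.000404 and limma voom one of 0.12 at gd19.5. None of them called it, since the change is under the fold limit. At gd10.5 and gd14.5 the Spon1 libraries of the genotypes overlapped, with log2 fold changes of -0.08 and -0.18.

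Wfdc2 rose and then fell steeply. The WT mean was 15.7 ± 6.0 CPM at gd10.5, 38.3 ± 8.8 CPM at gd14.5 and 1.80 ± 0.55 CPM at gd19.5, with log2 differences of 1.30 ± 0.34 (edgeR adjusted p = 0.0048) and then -4.39 ± 0.42 (adjusted p = 1.9e-06). KO libraries ran the same way, with 18.5 ± 12.2, 37.0 ± 3.7 and 1.85 ± 0.29 CPM. At gd10.5 the KO libraries measured 11.99, 32.6 and 11.04 CPM, with KO replicate 2 highest, and the KO log2 difference from gd10.5 to gd14.5 was 1.00 with that library and 1.69 without it. Wfdc2 at gd19.5 was 2.43, 1.61 and 1.38 CPM in WT and 2.19, 1.64 and 1.74 CPM in KO, so the genotypes overlapped at the stage after the one that named the gene.

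Ngfr had the widest excursion of the surface protein genes. Its WT mean was 1.38 ± 0.53 CPM at gd10.5, 10.4 ± 1.8 CPM at gd14.5 and 0.182 ± 0.071 CPM at gd19.5, where the libraries held 3 to 7 reads, log2 differences of 2.94 ± 0.31 and -5.78 ± 0.41 (edgeR adjusted p = 5e-06 and 1.2e-07). At gd14.5 the WT libraries read 10.6, 12.1 and 8.46 CPM and the KO libraries 5.63, 8.38 and 7.01 CPM. The lowest WT library was only just above the highest KO library, and the log2 fold change of -0.58 ± 0.16 had an unadjusted p of 0.0055 and an adjusted p of 0.65 in edgeR. At gd19.5 Ngfr had too few reads to be tested.

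Kirrel3 and Igdcc3 followed different courses on the way up. Kirrel3 rose from 1.12 ± 0.29 to 5.12 ± 0.29 CPM between gd10.5 and gd14.5 in WT (2.22 ± 0.26, edgeR adjusted p = 8.8e-06), and stood at 2.17 ± 0.38 CPM at gd19.5 (-1.23 ± 0.24 from gd14.5, adjusted p = 0.0012). At gd16.5, described without a test, the WT mean of Kirrel3 was 7.65 ± 1.61 CPM, above that of gd14.5. Igdcc3 held 7.98 ± 2.20 and 9.85 ± 2.30 CPM at gd10.5 and gd14.5, a difference of 0.32 that was not called, before it fell to 0.869 ± 0.069 CPM (-3.48 ± 0.36, adjusted p = 4e-06). Neither gene separated the genotypes outside gd16.5. The KO libraries of Igdcc3 at gd19.5 spread from 0.580 to 1.75 CPM, wider than the 0.797 to 0.934 CPM of WT.

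Xkr4 was the gene that did not fall toward term. It rose from 0.190 ± 0.091 CPM (2 to 9 reads) to 1.02 ± 0.16 CPM between gd10.5 and gd14.5 in WT (2.35 ± 0.35, edgeR adjusted p = 6.4e-05) and stood at 1.13 ± 0.16 CPM at gd19.5, a log2 difference of 0.17 ± 0.29 from gd14.5. In KO the gd19.5 level was 0.859 ± 0.302 CPM, with a difference of -0.02 ± 0.30 from gd14.5. Xkr4 in WT and KO overlapped at gd10.5, gd14.5 and gd19.5, with too few reads for a test at gd10.5.

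Cacnb2 rose and then fell. In WT it measured 4.19 ± 0.55 CPM at gd10.5, 9.05 ± 0.47 CPM at gd14.5 and 1.94 ± 0.345 CPM at gd19.5 (1.12 ± 0.17 and -2.21 ± 0.18, edgeR adjusted p = 6.1e-05 and 3.9e-07). At gd14.5 the WT libraries read 9.58, 8.90 and 8.67 CPM and the KO libraries 7.27, 7.42 and 6.28 CPM, without overlap. The log2 fold change there was -0.38 ± 0.10, with an unadjusted p of 0.0042 and an adjusted p of 0.65. In KO the rise from gd10.5, 0.58 ± 0.17, passed the adjusted p limit (0.0085) but not the fold limit. Whether the rise differed between the genotypes is covered by the interaction test below.

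4932415M13Rik was lower in KO at each stage measured, with log2 fold changes of -0.67, -0.42, -2.45 and -1.28 in order of stage, with no test at gd16.5. At gd10.5 the WT libraries read 14.4, 15.4 and 8.63 CPM and the KO libraries 7.47, 6.40 and 10.2 CPM, with overlap (unadjusted p = 0.049 in edgeR, adjusted p = 1). Without KO gd10.5 replicate 2 the 4932415M13Rik difference there was -0.53 (unadjusted p = 0.11 in edgeR, adjusted p = 0.999). At gd19.5 they read 1.04, 0.598 and 0.501 CPM in WT and 0.350, 0.136 and 0.409 CPM in KO, without overlap (-1.28 ± 0.43, unadjusted p = 0.015, adjusted p = 0.27), from 12 to 26 reads in WT and 4 to 12 in KO. Its level fell in both genotypes at both steps, in WT with log2 differences of -1.49 and then -2.65 (edgeR adjusted p = 0.00092 and 7.2e-05). In GENCODE it is a transcribed processed pseudogene at chr17:53716509-53733843 (GRCm38, plus strand). It shares 94.1% identity over 1973 bases with 4932414J04Rik, which had 0 to 2 reads in the 24 libraries.

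**Figure D2:**
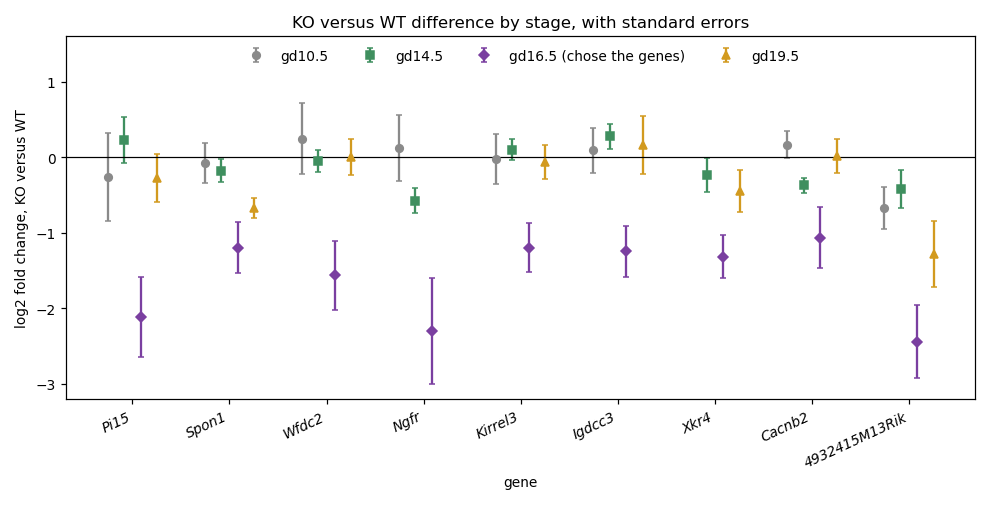
Log2 fold change of KO against WT (vertical axis) with standard errors for each gene and stage, from fits of 6 libraries each; gd16.5, in purple, chose the genes. The gd16.5 points lie lowest for every gene, and 4932415M13Rik is below 0 at every stage; Xkr4 at gd10.5 and Ngfr at gd19.5 were not tested and have no point.

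Outside gd16.5 the log2 fold change was negative for 4 of 8, 6 of 9 and 5 of 8 genes tested at gd10.5, gd14.5 and gd19.5, against 46.8%, 50.8% and 51.7% of genes. EdgeR called no gene between the genotypes at gd10.5 (0 of 8 tested, against 0.00572% of genes), at gd14.5 (0 of 9, against 0.0166%) or at gd19.5 (0 of 8, against 0.023%). DESeq2 and limma voom called none of them at these stages either, against 0.0114%, 0.0166% and 0.103% of genes for DESeq2 and 0.00572%, 0.0222% and 0.023% for voom. At an unadjusted p under 0.05 there was 1 gene at gd10.5, 4932415M13Rik, against 0.801% of genes. There were 2 at gd14.5, Ngfr and Cacnb2, against 6.78%, and 2 at gd19.5, Spon1 and 4932415M13Rik, against 13.5%. All KO libraries lay below all WT libraries for 0, 2 and 2 genes at these stages, against 2.35%, 6.1% and 8.58% of genes. The medians over the genes tested were 0.03, -0.18 and -0.17 on the log2 scale, beside 0.010, -0.0026 and -0.0067 over all genes.

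Over the 18 libraries together, with stage in the model, 6 of 9 genes had a negative KO effect against 46.8% of all genes, and none was called, against 0.00521% (0 also with DESeq2, against 0.0312%, and limma voom, against 0.0156%). In edgeR the unadjusted p was under 0.05 for 2 genes, against 6.36% of genes. These were 4932415M13Rik, at -0.67 ± 0.20 (adjusted p = 0.75), and Spon1, at -0.30 ± 0.13 (adjusted p = 0.78). Without KO gd10.5 replicate 2 they were 4932415M13Rik, at -0.60, and Ngfr, at -0.41 (adjusted p = 0.32 and 0.4 in edgeR), while Spon1 was at -0.23 with an unadjusted p of 0.063. Tests of whether the KO effect differed among gd10.5, gd14.5 and gd19.5 called 0 of 9 genes, against 0% of genes, with 0 genes at an unadjusted p under 0.05 in edgeR and limma voom and 1 in DESeq2, against 3.61% of genes in edgeR. The lowest edgeR value was that of Cacnb2 (unadjusted p = 0.084, adjusted p = 1). Whether the gd16.5 difference was larger than that at the other stages was not tested, because gd16.5 chose the genes.

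The gd16.5 levels can be set beside the WT course. Relative to WT gd14.5, WT gd16.5 lay at 0.19 for Pi15, -1.20 for Wfdc2, -1.52 for Ngfr and -1.38 for Cacnb2 on the log2 scale of group means. KO gd16.5 lay at -1.96, -2.76, -3.81 and -2.47 for the same genes, and WT gd19.5 at -2.02, -4.41, -5.84 and -2.22. For Kirrel3 and Xkr4, WT gd16.5 lay above WT gd14.5, at 0.58 and 0.66. KO gd16.5 lay at -0.63 and -0.68 for these genes, and WT gd19.5 at -1.24 and 0.16. Over the 9 genes, KO gd16.5 fell between WT gd16.5 and WT gd19.5 for 5 and below both for 4 (Spon1, Xkr4, Cacnb2 and 4932415M13Rik). It was nearer to WT gd19.5 for 7 and nearer to WT gd16.5 for 2, Wfdc2 and Igdcc3. For the 4 below both, WT gd19.5 lay below WT gd16.5, so KO gd16.5 could only be nearer to WT gd19.5. The gd16.5 values chose the genes, and the share of all genes nearer to WT gd19.5 was not computed. Nothing is read from these counts.

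**Figure D3:**
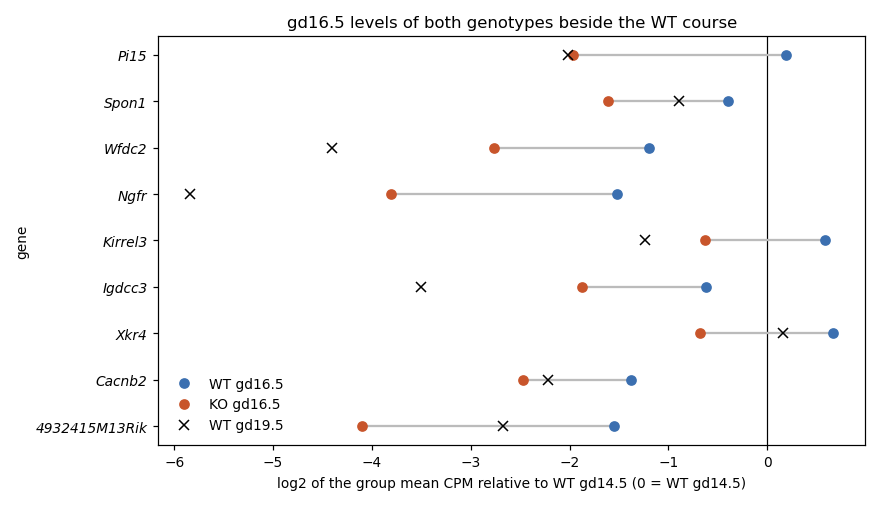
Group mean levels of each gene on a log2 scale relative to WT gd14.5 (horizontal axis, 0 is WT gd14.5), with WT gd16.5 in blue, KO gd16.5 in orange and WT gd19.5 as crosses. The KO gd16.5 point lies to the left of the WT gd16.5 point for all 9 genes and closer to the cross for 7. For the 4 genes where it lies left of both, the cross is the nearer by arithmetic, and nothing is read from these counts.

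Genes across the table were grouped by their WT course. Of the 826 genes that fell from gd14.5 to gd19.5 in WT, 630 could be measured at gd16.5, and 66.3% of them were lower in KO there, 7.62% by more than 1 on the log2 scale. Of the 1153 genes that rose, 986 were measured, with 28.7% and 0.203%. Over all genes the shares were 48.4% and 0.545%. Of the 9 genes, 7 belong to those that fell. This is a description without a test, and the part of stage in the 9 genes' gd16.5 difference was not tested.

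Whether the genes move together was asked within groups, where stage and genotype are held fixed, over the deviations of log2 CPM from the group means in the 18 libraries. The 36 pairs had a median Pearson r of 0.06, and 19 were positive. At an adjusted p under 0.05 (permutation within groups, two-sided, Benjamini-Hochberg over 36 pairs) there was 1 pair, Spon1 and Igdcc3, and it was negative. Its r was -0.58 (permutation p = 0.00032, adjusted p = 0.012) and its Spearman rho -0.69 (permutation p = 0.00088, adjusted p = 0.032), and r was -0.49 without the 2 libraries farthest from the median of Spon1. No positive pair was called. The number of called pairs was 0 without gd10.5, 0 without gd14.5, 4 without gd19.5 (1 positive, 3 negative) and 3 without KO gd19.5 replicate 2. The median r was 0.18 without gd10.5 (28 of 36 pairs positive), 0.04 without gd14.5 (20 positive) and 0.03 without gd19.5 (18 positive). Without KO gd10.5 replicate 2 alone it was 0.14 (22 positive). Over all 24 libraries 4 positive pairs were called, but that count includes the gd16.5 libraries that chose the genes.

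KO gd10.5 replicate 2 was the highest KO library of its stage for 6 genes (Wfdc2, Ngfr, Kirrel3, Igdcc3, Xkr4 and Cacnb2) and the lowest for the other 3 (Pi15, Spon1 and 4932415M13Rik). Pi15, Spon1 and 4932415M13Rik had positive r with each other, 0.66, 0.59 and 0.59, none called (permutation adjusted p = 0.5, 0.17 and 0.17). Pi15 and Spon1 had a negative r with each of the other 6 genes, 12 pairs in all, and without KO gd10.5 replicate 2 only 7 of the 12 were negative, 6 of them between -0.09 and 0. The other 5 turned positive, at 0.20 and 0.16 for Pi15 with Igdcc3 and Xkr4 and at 0.13, 0.24 and 0.27 for Spon1 with Wfdc2, Xkr4 and Cacnb2. Without that library r of Pi15 and Spon1 was 0.24. The r with 4932415M13Rik was then 0.68 for Pi15 and 0.65 for Spon1, neither called (permutation adjusted p = 0.42 for both). The Spon1 and Igdcc3 pair remained called (r = -0.44, permutation adjusted p = 0.039). The decidual stroma markers of KO gd10.5 replicate 2 summed to 2201 CPM against 3306 to 13107 CPM in the other 5 gd10.5 libraries. The 3306 CPM were those of KO replicate 1, whose Pi15 and Spon1 stood at 101 and 117 CPM. In KO replicate 2 uterine stroma markers summed to 355 CPM against 572 to 890 CPM in the other 5. Its smooth muscle markers summed to 631 against 1008 to 1572 CPM, and its Y-linked transcripts to 71.1 against 0.0374 to 0.311 CPM. The part of these markers was not tested.

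**Figure D4:**
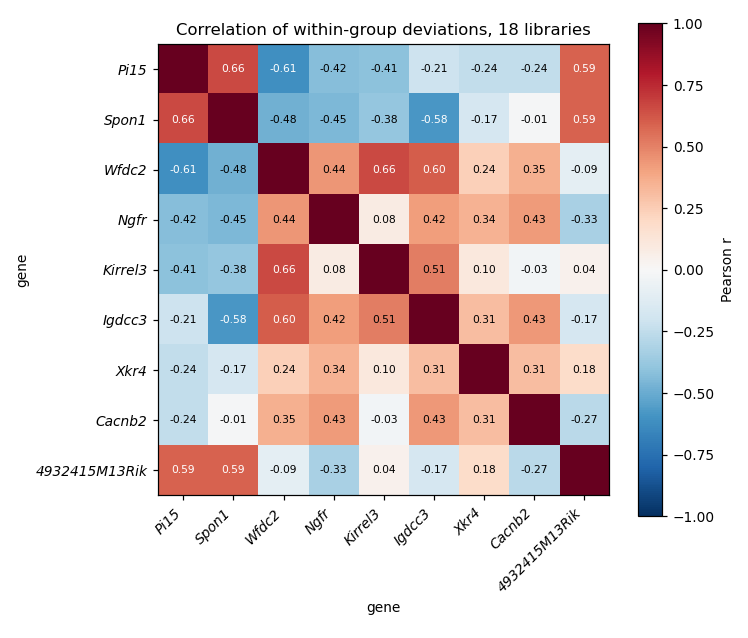
Pearson correlation of within-group deviations of log2 CPM for each pair of the 9 genes over 18 libraries, from -1 in blue to 1 in red. Pi15, Spon1 and 4932415M13Rik have positive values with each other, and Pi15 and Spon1 have negative values with the other 6 genes, and 5 of these 12 values turn positive without KO gd10.5 replicate 2, and Spon1 with Igdcc3 is the 1 pair called.

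In a search for the genes most like each member in within-group deviations, the 9 members themselves were left out. Among 15085 genes with a mean of at least 1 CPM, the genes found differed from member to member. They were Vwce and Plpbp for Pi15 (r = 0.91 and 0.90 over 18 libraries), Tmc6 and St3gal2 for Spon1 (0.96 and 0.95), Tulp1 and Tfeb for Wfdc2 (0.98 and 0.95) and Tbc1d9 and Dgat2 for Ngfr (0.91 and 0.90). For Kirrel3 they were Rfxank and Thap4 (0.94 and 0.87), for Igdcc3 Zfp791 and Ss18 (0.87 and 0.87), for Xkr4 Abcd3 and Grin2d (0.85 and 0.82) and for Cacnb2 Srsf4 and Caprin2 (0.84 and 0.83). For 4932415M13Rik Pla2g2e came first (0.94). These are the highest of many values and share library depth and composition, so they are given as a description. Without KO gd10.5 replicate 2 the Pi15 values were 0.76 and 0.75.

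Relatives of the members were set beside them from fixed lists. Of 46 relatives, 31, 29 and 28 were tested at gd10.5, gd14.5 and gd19.5, and edgeR called none between the genotypes at any of these stages (DESeq2 and limma voom also called 0). At an unadjusted p under 0.05, 0, 1 and 5 were higher in KO and none was lower, against 0.801%, 6.78% and 13.5% of all genes in either direction. The 5 of 28 at gd19.5 lie near that background, and nothing is read from them. The 5 at gd19.5 were Spon2, Rspo3, Ntrk2, Neo1 and Cacnb3. Ntrk2, the BDNF receptor and a signalling partner of Ngfr, measured 8.77 ± 2.10 CPM in WT and 14.0 ± 1.1 CPM in KO at gd19.5 (0.66 ± 0.16, unadjusted p = 0.0024, adjusted p = 0.17 in edgeR). Spon2, a relative of Spon1, measured 10.3 ± 1.0 and 13.4 ± 0.5 CPM (0.34 ± 0.10, adjusted p = 0.2).

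The relatives were listed from the families of the members, with earlier results of these data known, so their gd16.5 values are not independent of that choice. At gd16.5, 28 relatives were tested, and 19 were lower in KO, against 48.4% of genes. Their median log2 fold change was -0.13, beside 0.0083 over all genes. EdgeR called none of them, against 0.00586% of genes (DESeq2 called 1, against 0.264%, and limma voom 0, against 0.00586%). Unadjusted p was under 0.05 for 5 lower genes, Rspo3, Slpi, Ntrk2, Sort1 and Cacna1b, and 1 higher gene, Cacnb3, against 11.1% of genes in either direction. Cacna1b, a neuronal calcium channel pore, was the lowest of them at 7.50 ± 2.57 CPM in WT and 2.98 ± 0.99 CPM in KO (-1.32 ± 0.30, adjusted p = 0.36).

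All 9 gene models have the coordinates of GENCODE M21 on GRCm38. Pi15 lies at chr1:17601901-17630939, Spon1 at chr7:113765998-114043370, Wfdc2 at chr2:164562413-164568510, Ngfr at chr11:95568818-95587735 and Kirrel3 at chr9:34485894-35036716. Igdcc3 lies at chr9:65141189-65185872, Xkr4 at chr1:3205901-3671498 and Cacnb2 at chr2:14603088-14987908. Only Kirrel3 and Igdcc3 (chromosome 9), Pi15 and Xkr4 (chromosome 1) and Wfdc2 and Cacnb2 (chromosome 2) share a chromosome. Reads were counted without regard to strand, so strand did not separate a member's reads from antisense reads over its exons. Genes on the opposite strand whose span overlaps that of a member have counts of their own over the 24 libraries. They include Gm28154 (0 to 9 reads) for Pi15, Kirrel3os (1 to 15 reads) for Kirrel3 and Gm7341 (1 to 12 reads) for Xkr4. For Cacnb2 they include Gm38273 (19 to 657 reads), Gm13269 (6 to 270 reads) and Gm13268 (12 to 58 reads). Whether their exons overlap those of the members was not examined. Another gene opposite Kirrel3, Gm26662, was not analysed here.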

How the data were processed

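MFI RNA of 24 samples was measured by RNA-seq. As the labels and methods state, TruSeq stranded libraries were trimmed with Trim Galore 0.6.4, aligned to GRCm38 with STAR 2.7.3a and counted with featureCounts of Subread 2.0.0 at default settings, without strand and without multi-mapping reads. The authors deposited raw read counts per gene, with no normalization, and the 24 totals lie between 20975717 and 37383108. The annotation release was not given in the sources used here.

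Groups follow the sample labels. CPM (read counts scaled to library size) were computed with TMM factors over all 24 libraries. Genes were kept by edgeR's filterByExpr (minimum count 10, minimum total 15) and tested with edgeR 4.0.16 quasi-likelihood fits in R 4.3.3, with Benjamini-Hochberg adjustment over all genes tested. Each stage was fitted on its 6 libraries, and stage courses, the common KO effect and the interaction on the 18 libraries of gd10.5, gd14.5 and gd19.5. DESeq2 1.42.0, voom of limma 3.58.1 with quality weights, other normalization and filters, a replicate block and leaving out each library were tried as alternatives. Co-variation used log2 CPM with a prior count of 2 and 100000 resamples. Scripts were tested on simulated data. Replicate numbers are those of the descriptions, which for KO differ from the titles. The members and all gene lists were chosen with earlier results of these data known. The genes named are the 9 members, C1qtnf6, listed relatives and markers and, for each member, the 2 genes most like it, with a few genes of these lists not reported here. Copies of members were sought among GENCODE M21 transcripts with BLAST 2.17.0.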

Additional observations from a re-analysis of the deposited data

How the results depend on the processing

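No member was called between the genotypes at gd10.5 or gd14.5, or in the common effect, under any alternative tried. At gd19.5 the count of members called was 0, and 1 with no expression filter (4932415M13Rik). A call also needs the fold limit. By adjusted p under 0.05 alone, edgeR without the filter gave 1 member at gd14.5, Ngfr (edgeR adjusted p = 0.00061). At gd19.5 it gave 2, Spon1 and 4932415M13Rik (edgeR adjusted p = 1.8e-10 and 0.048). With the filter edgeR gave 0 at both stages, and the cause was not tested. The counts that rose or fell from gd10.5 to gd14.5 were 7 in WT and 6 in KO, and 4 and 3 when at least 10 reads were asked in every library, and the count in KO from gd10.5 to gd19.5 was then 5, with fewer genes tested. The number of pairs that vary together was 1, and 4 over all 24 libraries, 0 without gd10.5, 0 without gd14.5 and 4 without gd19.5. Leaving out 1 library gave 1 to 3, the highest without KO gd19.5 replicate 2 (runs without 1 library were added after seeing the data). Replicate numbers do not pair the samples (correlations of -0.455 to 0.406, with 5 of 12 over 0.1). With a replicate block the count of members called stayed at 0 in each genotype comparison, and the block gave 7 of 9 members in WT from gd10.5 to gd14.5.

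The signs that turned were of small differences. With limma voom at gd10.5 Spon1 was 0.044, Wfdc2 -0.13, Ngfr -0.20 and Igdcc3 -0.049. With voom, Kirrel3 at gd19.5 was 0.057, and in the common effect Pi15 was 0.051 and Wfdc2 -0.041. At gd19.5 Wfdc2 was -0.0029 when 10 reads were asked in every library. Leaving out 1 library at gd10.5 gave ranges of -0.59 to 0.19 for Pi15, -0.29 to 0.18 for Spon1, -0.44 to 0.59 for Wfdc2, -0.31 to 0.45 for Ngfr, -0.27 to 0.18 for Kirrel3 and -0.21 to 0.30 for Igdcc3. At gd14.5 the ranges were -0.13 to 0.48 for Pi15, -0.16 to 0.16 for Wfdc2 and -0.023 to 0.22 for Kirrel3. At gd19.5 they were -0.71 to 0.027 for Pi15, -0.14 to 0.27 for Wfdc2, -0.22 to 0.15 for Kirrel3, -0.41 to 0.45 for Igdcc3 and -0.11 to 0.20 for Cacnb2. In the common effect they were -0.23 to 0.092 for Pi15, -0.16 to 0.18 for Wfdc2 and -0.029 to 0.088 for Kirrel3, and for Xkr4 in KO from gd14.5 to gd19.5 they were -0.29 to 0.20. Depth limits Ngfr at gd19.5, Xkr4 at gd10.5 and 4932415M13Rik after gd14.5.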
